A study of Mus musculus with 8 samples.

Results

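Meis1, Meis2, Meis3, Pbx2 and Pbx3 were followed through single-cell RNA counts from mouse frontal isocortex at postnatal day 7. They are 5 of the 18141 genes that the 2 deposited count tables hold between them, and all 5 are rows of both tables. The genes were chosen by name, with values of the Foxp2 knockout in the D1Tom sort already known, above all those of Meis2 and Pbx3 in inhibitory-lineage cells. That contrast is therefore described here without a test. The GTE contrast and the comparison of the sorts were tested over all genes.

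Meis and Pbx proteins are homeodomain transcription factors of the TALE class, named for extra residues in a loop of the homeodomain. They bind DNA as heterodimers with each other and with Hox and other factors, and PBX proteins depend on such partners for much of their choice of site. In the developing forebrain, Meis2 is known from the lateral ganglionic eminence, from striatal projection neurons and from the neuroblasts that supply the olfactory bulb, and also from cortical excitatory neurons. Pbx3 is known from the same bulb-directed lineage, and Meis1 from neural progenitors.

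The study sorted live cells by 1 of 2 reporter transgenes, Drd1a-tdTomato (a bacterial artificial chromosome reporter of the dopamine D1 receptor gene; the D1Tom sort) or golli-τ-eGFP (a reporter driven by the golli promoter of the myelin basic protein locus; the GTE sort). Control mice were Foxp2 flox/flox without Cre, and conditional knockout (cKO) mice were Emx1-Cre; Foxp2 flox/flox, so both groups carried the floxed alleles. The label of the GTE cKO mice repeats Foxp2 flox/flox. Emx1-Cre acts in the cortical excitatory and glial lineage, so cells of other origins keep Foxp2. Each group had 2 libraries, 8 in all, and the labels do not say how many animals went into one. The p-values below thus measure the spread between libraries. Frontal isocortex was separated from the olfactory areas during dissection, per the labels' protocols.

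The D1Tom libraries held 2395 to 3206 cells with median totals of 7198 to 12815 counts per cell, and the GTE libraries 1440 to 3948 cells with medians of 1085.5 to 2982. Pairs of libraries shared 1 to 27 cell barcodes. Foxp2 in layer 6 corticothalamic-like cells, which express it most, was at 266.9 and 218.4 CPM (a gene's counts scaled to the same total in every library or cell type) in D1Tom control cells and 73.4 and 60.9 CPM in cKO cells; its counts may partly lie outside the deleted part. In all GTE cells Foxp2 was at 9.52 and 46.9 CPM in controls and 25.4 and 7.43 CPM in cKO, which does not separate the groups. GTE cKO 1 stands apart: 36.1% of its cells formed 1 unnamed cluster (number 0) that held 0.659% to 1.1% of the other GTE libraries. The cluster's leading genes included F3, Phkg1, Htra1, Slc7a10 and Lfng, of which Slc7a10 and Lfng also led an astrocyte-like D1Tom cluster. Oligodendrocyte precursor-like cells were 28.0% of cKO 1, against 3.62% to 6.19%. Astrocyte markers summed to 6398 CPM in cKO 1 and to 2319 to 5105 CPM in the other GTE libraries. The labels place the first control and first cKO library of D1Tom on 1 preparation day and the second of each on another, and of these 4 only cKO 2 was male. Excitatory neuron markers summed to 522 to 896 CPM in D1Tom and 149.7 to 516 CPM in GTE, and striatal projection neuron markers to 62.0 to 93.1 and 26.8 to 40.6 CPM. Isl1 was at 0 in D1Tom control 1 and cKO 1, and Six3 at 0 in both GTE controls.

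In the RefSeq annotation of GRCm38.p6, the genes lie on chromosome 11 (Meis1, 18880428 to 19019651), chromosome 2 (Meis2, 115861264 to 116067537, and Pbx3, 34171457 to 34372045), chromosome 7 (Meis3, 16174012 to 16186510) and chromosome 17 (Pbx2, 34592259 to 34597400). Meis1 overlaps Gm16141 and Meis2 overlaps G630016G05Rik, and whether the counting used strand is not given in the sources used here, so reads of these pairs cannot be told apart. The windows of up to 250 bases before the start, without annotated exons, are shown for the 2 Meis genes that differ most between cell types, and for Sp8, the neuroblast transcription factor whose counts stand beside theirs below. Both Meis windows lie inside the annotated gene, before an internal start site. All 3 are given 5′ to 3′ on the gene's strand, with the core MEIS site TGACAG, searched on both strands, in capitals.

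Meis2, chr2:116064722-116064801, minus strand: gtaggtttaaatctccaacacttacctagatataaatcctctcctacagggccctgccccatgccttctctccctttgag
Meis1, chr11:19018986-19019219, minus strand: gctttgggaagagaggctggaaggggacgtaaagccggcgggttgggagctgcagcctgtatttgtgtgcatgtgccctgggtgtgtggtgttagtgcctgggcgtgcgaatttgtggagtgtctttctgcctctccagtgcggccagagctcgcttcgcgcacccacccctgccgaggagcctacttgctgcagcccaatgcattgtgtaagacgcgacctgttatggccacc
Sp8, the first of its start sites in the table, chr12:118846079-118846328, plus strand: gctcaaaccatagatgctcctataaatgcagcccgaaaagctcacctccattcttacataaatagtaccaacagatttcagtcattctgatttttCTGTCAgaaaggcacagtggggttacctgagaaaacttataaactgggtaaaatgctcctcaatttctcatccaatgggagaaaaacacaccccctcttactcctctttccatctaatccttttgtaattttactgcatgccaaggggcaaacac

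The Sp8 window shown holds the MEIS core on the opposite strand. The windows of Sp8's other start sites, without exons, do not hold it, and neither Meis window does. The shares that follow are over whole windows of 250 bases, exons included. Across the mouse genome 17.95% of the 27025 genes in the table had the core in at least 1 window. It was found for 0 of the 4 members present there (Meis1, Meis2, Meis3 and Pbx2), for 4 of 16 lateral eminence and olfactory-bulb lineage factors (Sp8, Pax6, Six3 and Foxp1) and for 4 of 15 Emx1-lineage excitatory factors (Tbr1, Neurod2, Cux2 and Rorb). The composite sites TGATTGAT and TGATTGAC of PBX with its partners, which do not contain TGACAG, and the forkhead site TGTTTAC were in 0 of the 4 members' windows, against 0.770%, 0.799% and 3.54% of all genes. These matches are letters in a window and say nothing of binding.

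Each member had its own distribution over the cells of the D1Tom sort. Cells were clustered without the 5 genes and named from marker lists, which left 13 types or clusters where no D1Tom library had under 30 cells. Values below are summed counts as CPM of the cell type's total in that library, and they are compared between cell types for 1 gene at a time, since counts from the 3′ end do not rank different genes. Types were ordered by the mean of the 4 D1Tom libraries.

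**Figure D1:**
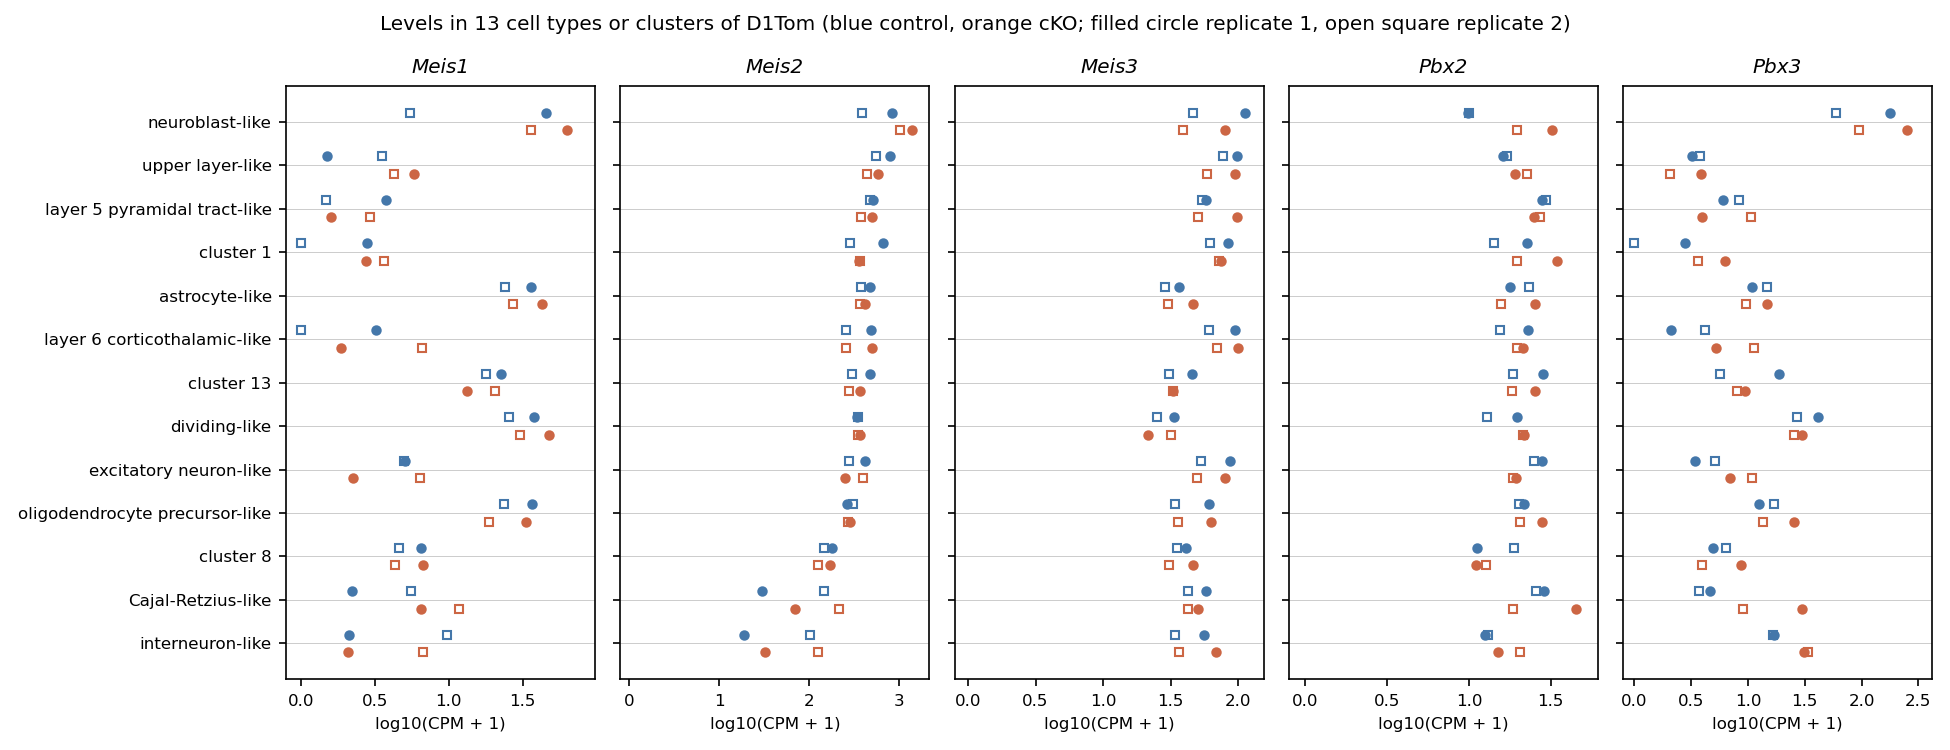
Level of each member as log10(CPM + 1) in 13 cell types or clusters of the D1Tom sort; each point is 1 library, blue for control and orange for cKO, with filled circles for replicate 1 and open squares for replicate 2. Pbx3 is highest in neuroblast-like cells in all 4 libraries, whereas Pbx2 spans a narrow range.

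Pbx3, a partner of Hox and Meis proteins, was most restricted among these types. Its level in the neuroblast-like cells (led by Igfbpl1, Sp9, Dlx2, Sp8 and Dlx1) was 177.2 and 58.5 CPM in controls and 250.7 and 94.5 CPM in cKO, a mean of 145.2 ± 86.1 CPM (SD, n = 4). All 4 values lay above every library of the other 12 types. Next came dividing-like cells at 29.9 ± 7.47 CPM, interneuron-like cells at 23.7 ± 9.20 CPM and oligodendrocyte precursor-like cells at 16.1 ± 5.73 CPM (SD, n = 4 each), whose libraries overlapped from each to the next. Upper layer-like neurons came last, at 2.22 ± 0.809 CPM (SD, n = 4), with 1 to 13 counts per library. Types with under 30 cells in a library are not in this order. Of these, endothelial-like cells gave 0.269% and 22.4% of the Pbx3 counts in controls and 1.02% and 6.45% in cKO. In control 2 neuroblast-like cells gave 6.86%. Within the interneuron-like class Pbx3 was uneven: in the caudal (CGE) cluster led by Adarb2, Tac2 and Crh it was at 32.1 and 33.2 CPM in controls and 62.6 and 79.4 CPM in cKO. In the medial (MGE) cluster led by Sst and Npy it was at 1.68 and 8.54 CPM in controls and 2.74 and 13.9 CPM in cKO, from 1 to 6 counts.

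Meis2, the member with lateral eminence and cortical expression, was broad. Neuroblast-like cells had the highest mean, 909.5 ± 421.5 CPM (SD, n = 4), and the libraries were 829.7 and 385.1 CPM in controls and 1397 and 1026 CPM in cKO. Upper layer-like neurons followed at 593.4 ± 148.4 CPM and layer 5 pyramidal tract-like neurons at 467.7 ± 60.6 CPM, with 412.4 ± 51.7 CPM in astrocyte-like cells (SD, n = 4 each). In controls alone upper layer-like neurons had the higher mean, 672.1 CPM, against 607.4 CPM in neuroblast-like cells. From the first to the tenth place each neighbour overlapped the next. A gap lay between oligodendrocyte precursor-like cells, at 260.3 to 308.0 CPM, and the last 3: cluster 8, led by haemoglobin genes together with mitochondrial genes, Cajal-Retzius-like cells and interneuron-like cells. Interneuron-like cells held 17.9 and 100.2 CPM in controls and 31.5 and 125.9 CPM in cKO. There the second preparation day was above the first in both genotypes, in the caudal and the medial cluster as well as in cluster 2, led by Lamp5.

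Leaving aside neuroblast-like cells, Meis1, a progenitor-associated member, split the named types into glial or dividing cells and neurons. It was at 36.5 ± 24.1 CPM in neuroblast-like, 34.2 ± 9.54 CPM in dividing-like, 31.4 ± 8.43 CPM in astrocyte-like and 27.0 ± 8.23 CPM in oligodendrocyte precursor-like cells (SD, n = 4 each). The neuroblast-like mean was uneven, with 44.3 and 4.50 CPM in controls and 62.2 and 35.2 CPM in cKO. In controls alone it was 24.4 CPM, below dividing-like (30.6 CPM), astrocyte-like (29.1 CPM) and oligodendrocyte precursor-like cells (29.1 CPM). In dividing-like and astrocyte-like cells all 4 libraries were above all libraries of 9 of the other types. Layer 5 pyramidal tract-like neurons were lowest, at 1.44 ± 1.10 CPM (SD, n = 4), from 1 to 5 counts per library.

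Meis3 and Pbx2 varied less. Meis3 was highest in excitatory neurons, with 81.4 ± 18.0 CPM in upper layer-like and 80.7 ± 18.9 CPM in layer 6 corticothalamic-like cells, and lowest in dividing-like cells at 27.0 ± 5.63 CPM (SD, n = 4 each). Every neighbour in its order overlapped the next. Pbx2 ran from 28.5 ± 11.2 CPM in Cajal-Retzius-like cells to 12.5 ± 3.72 CPM in cluster 8 (SD, n = 4 each), again with no gap between neighbours. Layer 5 pyramidal tract-like neurons, at 24.0 to 28.6 CPM, were wholly above 5 of the other types.

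The genes with the most similar pattern were named as the 3 highest Pearson correlations of log2(CPM + 1) over 22 D1Tom clusters in the control libraries, among 9758 genes; the clusters share libraries, and no p is given. For Meis2 they included Pou3f2 (0.86), an upper layer transcription factor, and Boc (0.85), a Hedgehog co-receptor. For Meis1 they were Bcan, which encodes brevican, Rnf180 and Il18, all at 0.92. For Pbx3 they were Mis12 (0.85), a kinetochore gene, Hmgn1 (0.83) and Hnrnpk (0.81). Meis3 was followed by Tmem198 (0.91), Celf3 (0.90) and Srrm3 (0.88), and Pbx2 by Mpp1 (0.81), Slc35e1 (0.78) and Mbnl1 (0.75). Among the members the closest pair was Meis1 with Pbx3, at 0.60, while Meis2 and Pbx3 were at -0.13.

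Beside this, single neuroblast-like cells often held both genes. A Meis2 count was found in 27 of 48 and 30 of 40 neuroblast-like cells of the control libraries, and in 169 of 215 and 179 of 196 after knockout. Of the same cells, 16, 11, 106 and 82 held counts of both Meis2 and Pbx3, which is 33.3% and 27.5% in controls and 49.3% and 41.8% in cKO. After thinning each cell to 1000 counts, Meis2 was seen in 30.7% of the control cells (exact 95% binomial interval 21.3% to 41.4%) and 55.5% of the cKO cells (50.5% to 60.3%), libraries pooled. The thinned share was 3.51% in control endothelial-like cells and 3.84% in control interneuron-like cells, and the median totals before thinning were 8110 counts in the neuroblast-like and 19595 in the endothelial-like cluster. Interneuron-like cells had the lowest Meis2 mean of the ranked types. Thinned shares of types richer in Meis2, such as upper layer-like cells, are not given here. These intervals cover counting error only.

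Does loss of Foxp2 go with other levels of these genes in the D1Tom sort? Over all cells Pbx3 and Meis1 were higher in both cKO libraries than in both controls, whereas Meis2, Meis3 and Pbx2 overlapped between the groups. Of all 14508 genes with enough counts, 9.7% lay above the controls in this way and 13.7% below. Since the members were chosen with this contrast in view, nothing is read from their count of 2 of 5.

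**Figure D2:**
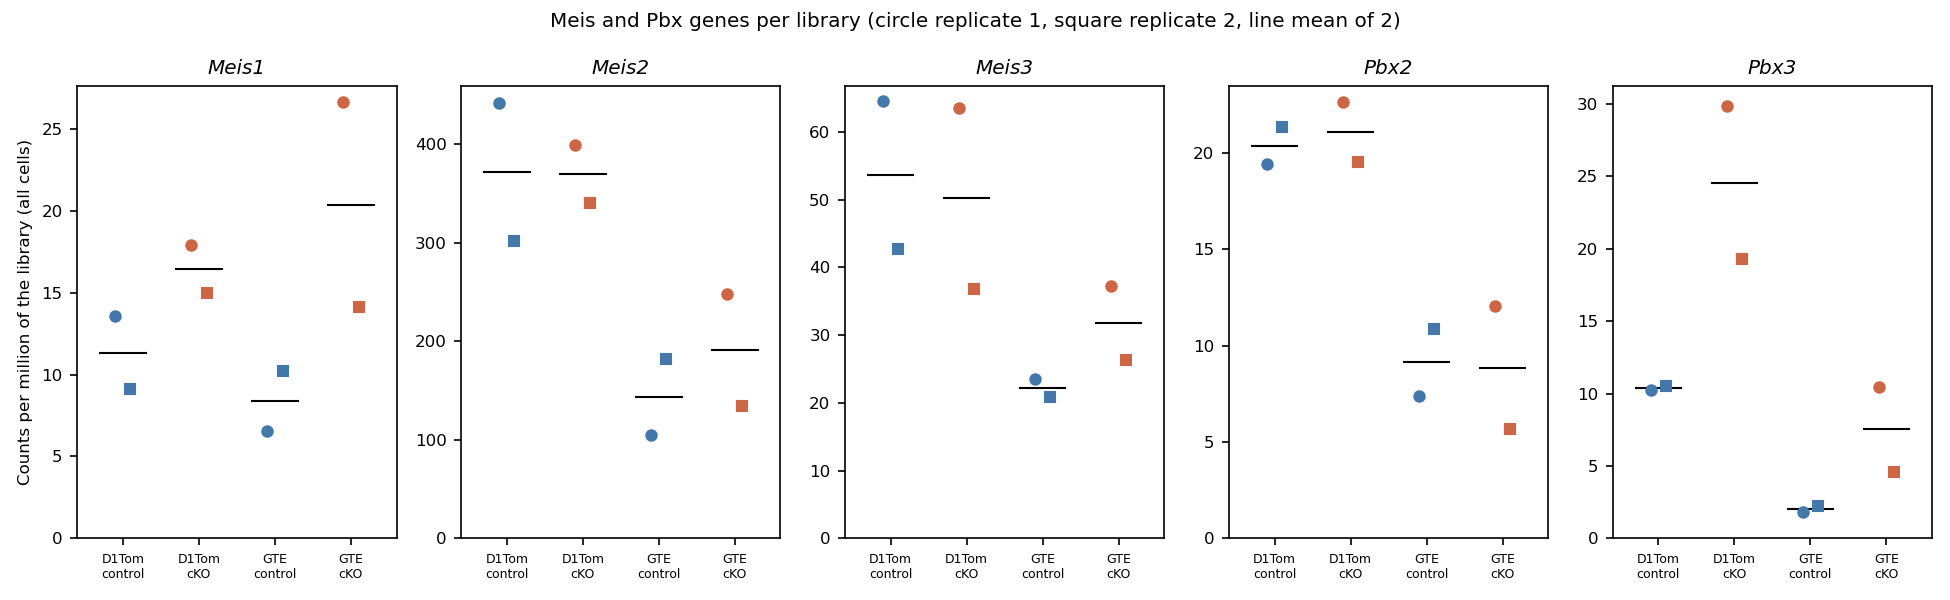
CPM over all cells of each library for the 5 members in the D1Tom and GTE sorts; circles are replicate 1, squares replicate 2 and lines the mean of 2 libraries. The D1Tom cKO libraries are at 29.8 and 19.3 CPM of Pbx3, above both controls at 10.2 and 10.5 CPM.

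Pbx3 was at 10.2 and 10.5 CPM in D1Tom controls, against 29.8 and 19.3 CPM after knockout, from 372 to 880 counts. The log2 difference (cKO minus control, edgeR) was 1.29 with an SE of 0.20. Within the first preparation day the log2 ratio of CPM was 1.55 and within the second 0.87. In a bulk sum more cells of a type and more RNA per cell cannot be told apart. Meis1 was at 13.6 and 9.09 CPM in controls and 17.9 and 15.0 CPM in cKO, a log2 difference of 0.61 (SE 0.21), and 0.40 and 0.72 within the days.

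The other 3 showed no such order. Meis2 was at 442.1 and 301.2 CPM in controls and 398.8 and 340.4 CPM in cKO, a log2 difference of 0.06 (SE 0.21). Meis3 was at 64.6 and 42.8 against 63.6 and 36.8 CPM, a log2 difference of -0.05 (SE 0.26), with the first day higher in both groups. Pbx2 was at 19.4 and 21.3 against 22.6 and 19.5 CPM, a log2 difference of 0.11 (SE 0.16). The median over the 5 members was 0.11 on the log2 scale, against -0.01 over all genes tested.

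The share of neuroblast-like cells moved with these values. Control 1 and 2 had 48 and 40 such cells, and cKO 1 and 2 had 215 and 196, or 1.50% and 1.67% against 7.65% and 6.36% of the cells. It gave 16.1% and 6.86% of all Pbx3 counts in controls, against 55.5% and 45.4% after knockout. For Meis1 the shares were 3.04% and 0.612% against 22.9% and 21.7%, and for Meis2 1.75% and 1.58% against 23.1% and 27.9%. For Meis3 and Pbx2 they stayed under 10% in every library. Over the same libraries upper layer-like cells went from 29.2% and 23.9% of Meis2 counts in controls to 12.4% and 4.39% in cKO, so the groups' sums of Meis2 overlapped while these sources of it did not.

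**Figure D3:**
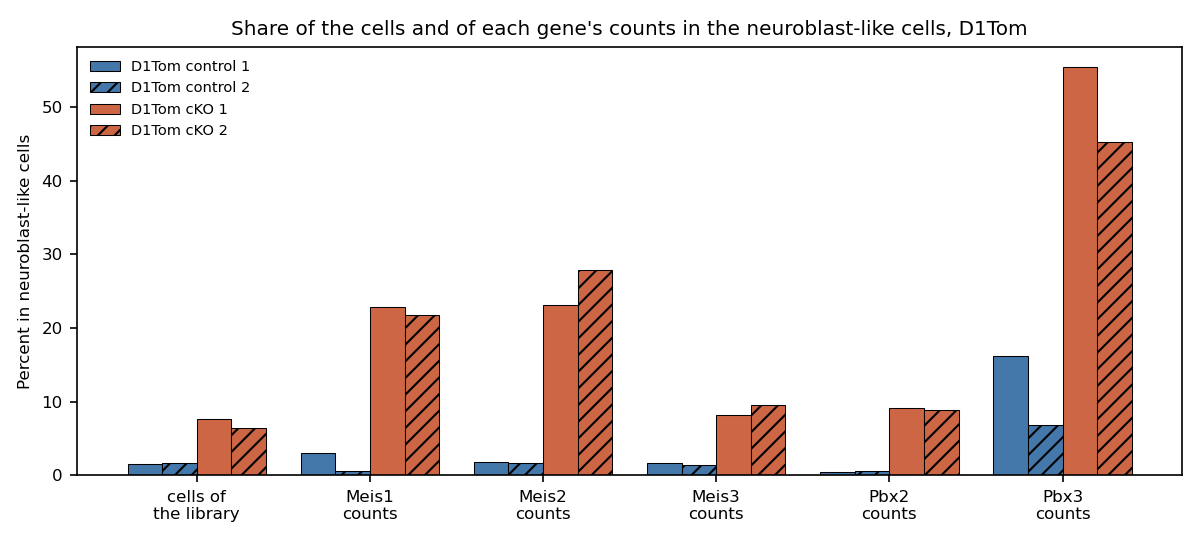
Percent of the cells of each D1Tom library, and of the counts of each member, that lay in neuroblast-like cells; blue bars are controls, orange bars cKO, and hatched bars replicate 2. In cKO libraries 55.5% and 45.4% of Pbx3 counts came from these cells.

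With the neuroblast-like cells left out, the log2 difference in all other D1Tom cells was 0.53 (SE 0.19) for Pbx3, 0.38 (SE 0.21) for Meis1 and -0.23 (SE 0.21) for Meis2. The part of Pbx3 outside the neuroblast-like cells was therefore smaller than the whole, and that of Meis2 had the opposite sign. Since cells were clustered with the genes that mark the cluster, its cell numbers are given as counts and carry no test. The 7 neuroblast markers (Sp8, Sp9, Dlx2, Cd24a, Tshz1, Scgn and Etv1) summed over all cells to 1198 and 997 CPM in controls and 1063 and 898 CPM in cKO. Most of that sum was Cd24a, at 1005 and 811 against 749.8 and 568 CPM, whereas Sp8, Sp9, Dlx2, Tshz1 and Etv1 lay above the controls, with log2 differences of 0.30 to 1.86.

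Within cell types the picture depended on the member. The 5 genes gave 55 combinations of gene and type with enough counts, and in 9 of these both cKO libraries lay above both controls and in 2 below, or 16.4% and 3.64%. Over all genes and the same 13 types the shares were 13.4% above and 12.9% below, with 6.71% to 18.1% and 7.78% to 17.6% in single types. The median log2 difference over the 55 combinations was -0.01.

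**Figure D4:**
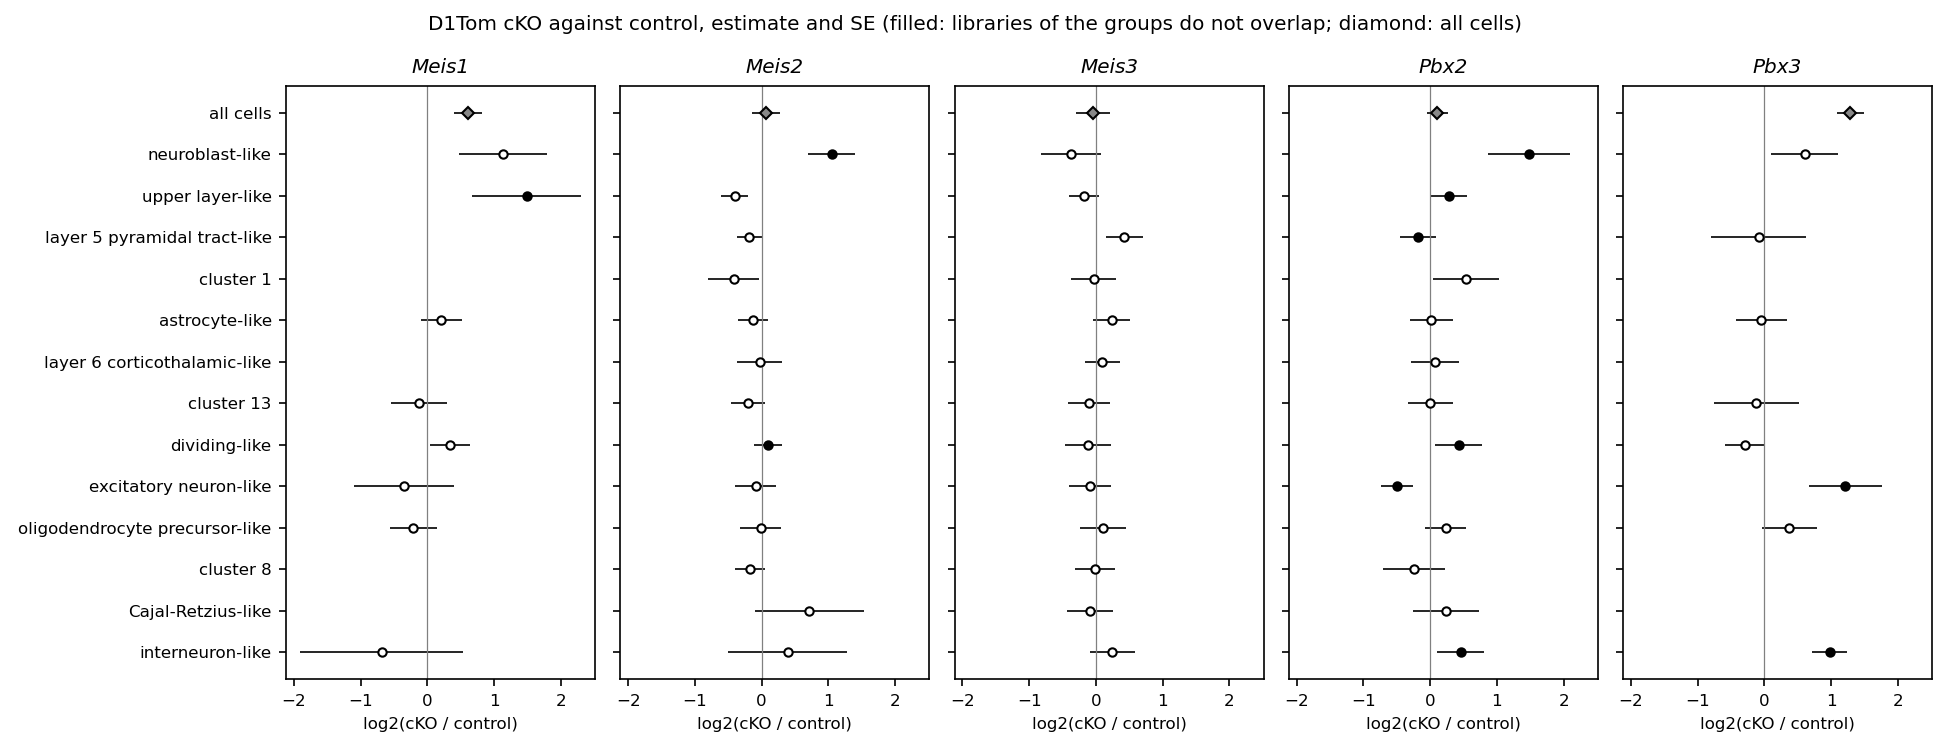
Log2 difference between cKO and control in D1Tom with its SE for each member in all cells (diamond) and in each cell type where it had enough counts (circles); filled circles mark types where the 2 libraries of one group lie wholly on one side of the other. Meis2 is at 1.05 in neuroblast-like cells and near 0 or below it in most other types.

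Meis2 in neuroblast-like cells was higher in both cKO libraries, with a log2 difference of 1.05 (SE 0.35), where 18.1% of all genes tested lay above the controls. The control with the lower value, control 2, weighs on it: without control 2 the difference was 0.66, and without control 1 it was 1.6. On the number of cells with a count in place of the counts it was 0.20. The makeup of the cluster also moved. Markers of dividing cells summed to 26.6 and 336 CPM in its control cells and to 454 and 613 CPM in its cKO cells (5 of 6 markers in the table, none at 0). Astrocyte markers summed to 933 and 2085 against 1957 and 2684 CPM, and the neuroblast markers to 2781 and 1468 against 3063 and 2585 CPM. Medial interneuron markers were lower in the cKO cells, at 821 and 698 against 479 and 298 CPM (6 of 6 in the table, none at 0). Caudal interneuron markers were at 774 and 347 against 388 and 218 CPM, lower within each day, with Vip at 0 in control 1. Olfactory bulb markers summed to 706 and 133 against 585 and 221 CPM with Tbx21 at 0 throughout, and striatal markers to 41.3 and 15.8 against 26.2 and 28.1 CPM with Isl1 at 0 throughout. The part of these cell types in the result was not tested.

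Other members were less clear in these cells. Pbx2, with 3 and 4 counts in controls and 61 and 47 in cKO, was at 8.86 and 9.01 CPM against 31.3 and 18.6 CPM, and its log2 difference was 1.48 (SE 0.62). Pbx3 overlapped between the groups, with a log2 difference of 0.60 (SE 0.50), but was higher in cKO within each day, by log2 ratios of 0.50 and 0.69. Meis1 overlapped likewise (1.13, SE 0.66), from 15 and 2 counts in controls and 121 and 89 in cKO. Its log2 ratios within the days were 0.49 and 2.97, the latter resting on the 2 counts of control 2. Meis3 was at -0.37 (SE 0.46), with -0.50 and -0.25.

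In interneuron-like cells Pbx3 was higher in the cKO libraries, at 30.1 and 33.1 CPM against 15.9 and 15.6 CPM in controls, from 36 to 84 counts. Its log2 difference was 0.98 (SE 0.26), where 12.1% of all genes lay above. With interneuron-like cells chosen instead by the markers detected in each cell, Pbx3 was at 11.4 and 24.3 CPM in controls and 32.3 and 8.72 CPM in cKO, so the order of the groups rests on the clusters. Meis2 in interneuron-like clusters gave a log2 difference of 0.39 (SE 0.89), but 2.52 (SE 0.52) in the cells chosen by markers and 2.52 (SE 0.33) in the interneuron-like and neuroblast-like clusters combined. Pbx3 in the latter gave 1.89 (SE 0.27). Of the cells chosen by markers, 3.69% and 8.05% of the control cells and 12.1% and 12.5% of the cKO cells lay in the neuroblast-like cluster; their part in the Meis2 value was not tested. Over all alternatives, these other choices of cells included, the Meis2 difference ran from -0.95 to 2.52.

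Excitatory neurons and glia showed small differences in Meis2. Upper layer-like neurons were at 794.5 and 549.7 CPM in controls and 589.8 and 439.4 CPM in cKO, which overlapped, with log2 ratios of -0.43 and -0.32 within the days. Astrocyte-like cells were at 481.3 and 381.5 against 421.8 and 365.2 CPM, and layer 6 corticothalamic-like neurons at 488.3 and 258.1 against 495.6 and 254.1 CPM. In excitatory neuron-like cells, led by Cyp26b1 and Oprk1, Pbx2 was lower in both cKO libraries (-0.49, SE 0.24) and Pbx3 higher (1.21, SE 0.55), the latter from 9 to 26 counts; 10.1% of all genes lay above there and 10.8% below. Meis3 overlapped between the groups in all 13 types.

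The GTE sort was not used to choose the genes, and there no member passed the test. edgeR's quasi-likelihood test with Benjamini-Hochberg adjustment called 0 of the 5, with 0 at an unadjusted p under 0.05, and DESeq2 called 0. Over all 12042 genes edgeR called 0.0083% higher and 0.0249% lower in cKO. In this sort 19.6% of all genes lay above the controls in both cKO libraries and 6.67% below.

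Pbx3 was at 1.81 and 2.25 CPM in GTE controls, against 10.5 and 4.60 CPM after knockout, from 11, 11, 53 and 26 counts. The log2 difference was 1.41 (SE 0.72) with an adjusted p of 0.942 (edgeR), and both cKO libraries were above both controls. Without cKO 1, the library that stands apart, it was 1.18 (SE 0.99, adjusted p of 1.00, edgeR). In dividing-like cells Pbx3 had 0 counts in both controls, which allows up to 15.9 and 19.3 CPM (3 counts in the library), and 17 and 8 counts in cKO, or 32.1 and 23.3 CPM.

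Meis1 was at 6.57 and 10.2 CPM in the GTE controls and 26.6 and 14.1 CPM in cKO, again without overlap (log2 difference 0.85, SE 0.55, adjusted p of 0.984, edgeR). Without cKO 1 the difference was 0.77 (SE 0.70). Of its 135 counts in cKO 1, 52 came from cluster 0 and 41 from oligodendrocyte precursor-like cells. In the latter Meis1 was at 11.4 and 28.3 CPM in controls and 32.5 and 32.5 CPM in cKO, so the makeup of cKO 1 moves with the sum; its part in the result was not tested.

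The other 3 did not keep one order. Meis2 was at 105.0 and 181.8 CPM in the GTE controls and 247.9 and 134.4 CPM in cKO, with a log2 difference of 0.0036 (SE 0.60, adjusted p of 1.00, edgeR). Meis3 was at 23.5 and 20.9 against 37.3 and 26.3 CPM by library totals, without overlap, but at 31.1 and 20.7 against 25.6 and 29.4 CPM after TMM scaling, with overlap (log2 difference 0.09, SE 0.52, adjusted p of 0.995). Under that scaling Pbx3 and Meis1 still did not overlap. Pbx2 was at 7.39 and 10.9 against 12.0 and 5.66 CPM (log2 difference -0.49, SE 0.58, adjusted p of 0.984). These overlap, but after TMM scaling Pbx2 was at 9.79 and 10.8 CPM in controls and at 8.26 and 6.32 CPM in cKO, wholly below.

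Between the sorts, control libraries only, 0 of the 5 members passed edgeR's test. DESeq2 also called 0 of them, and 1 member had an unadjusted p under 0.05 with either tool, as did 23.8% (edgeR) and 22.4% (DESeq2) of all genes tested. All 5 were measured in separate tables, the D1Tom controls were female and the GTE controls male, and their depths differed, so sort, sex and depth cannot be told apart. Of 13823 genes, 59.4% lay above GTE in both D1Tom controls and 7.55% below, and edgeR called 1.13% higher and 0.289% lower. Pbx3 had the largest difference of the 5, with a log2 difference (D1Tom minus GTE) of 1.70 (SE 0.43, adjusted p of 0.0816, edgeR). Among alternative edgeR fits that kept 2 libraries in each group, Pbx3 passed in 2. These were the fit with the replicate number as a block (adjusted p of 0.0394) and that on the number of cells with a count (0.0159). The GTE batches are unclear, so no known link joins the same-numbered libraries that the block pairs across the sorts. Over all alternatives the log2 difference of Pbx3 ran from 1.54 to 1.97. These include fits with 1 library left in a group, where that library is assumed to vary as the other group does. The log2 differences of Meis2, Meis3 and Pbx2 were 0.74, 0.58 and 0.52 (adjusted p of 0.272, 0.368 and 0.377), and that of Meis1 -0.21 (adjusted p of 0.762).

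Other TALE homeobox genes gave no pattern of this kind in D1Tom. Of 14 listed, 10 had enough counts, and 1 lay above the controls and 1 below, against 9.7% of all genes above and 13.7% below. Their median log2 difference was 0.00024 against -0.01 over all genes. Pbxip1, which encodes a PBX-binding protein, was at 39.1 and 37.2 CPM in controls and 43.3 and 49.0 CPM in cKO (log2 difference 0.35, SE 0.17). Mkx was at 14.4 and 11.9 against 11.0 and 8.64 CPM (-0.36, SE 0.18).

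Lateral eminence and olfactory-bulb lineage transcription factors were mostly higher, by plain order. Of 22 listed, 21 had enough counts, and 13 lay above the controls and 1 below, against 9.7% of all genes above and 13.7% below. Their median log2 difference was 0.74, against -0.01 over all genes. The largest were Gsx2 (1.94, SE 0.34), a lateral progenitor factor, Sp9 (1.86, SE 0.21) and Sp8 (1.81, SE 0.21), zinc-finger factors of interneuron and bulb neuroblasts, and Dlx2 (1.76, SE 0.29). Sp8 was at 11.0 and 7.90 CPM in controls and 30.6 and 32.4 CPM in cKO. Several of these genes define the neuroblast-like cluster, and they were chosen with results of these libraries known, so their order is not independent evidence beside the members.

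Emx1-lineage excitatory transcription factors were mixed in D1Tom. Of 17 genes, 8 lay below the controls, 1 (Rorb, 0.27) above and 8 overlapped, against 13.7% of all genes below and 9.7% above. The median log2 difference was -0.16. Emx1 was at 24.5 and 25.9 CPM in controls and 12.3 and 10.4 CPM in cKO (-1.09, SE 0.16). Neurod1 (-0.80, SE 0.22), Neurod2 (-0.71, SE 0.19) and Neurod6 (-0.58, SE 0.19), proneural factors of cortical excitatory neurons, followed. Within layer 6 corticothalamic-like cells Emx1 was at 48.1 and 40.2 CPM in controls and 16.2 and 16.9 CPM in cKO. Only cKO mice carried Emx1-Cre, so for Emx1 the driver and the loss of Foxp2 cannot be told apart. Upper layer-like and excitatory neuron-like cells were 8.20% and 4.77% of control 1 and 11.4% and 12.9% of control 2, against 3.34% and 3.77% of cKO 1 and 1.82% and 3.83% of cKO 2.

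In GTE none of the 3 lists had a gene past edgeR's adjusted threshold. At an unadjusted p under 0.05 there were 1 of 9 other TALE genes, 2 of 18 lineage factors and 6 of 17 Emx1-lineage factors, against 5.22% of all genes, and DESeq2 called 0 genes in all. By order of CPM on library totals, 4, 6 and 0 lay above the controls and 0, 0 and 6 below. Of all genes 19.6% lay above in this way and 6.67% below. The median log2 differences were 0.13, 0.23 and -0.79, against -0.05 over all genes. Between the sorts, Sp8 was higher in the D1Tom controls (log2 difference 3.20, SE 0.55, adjusted p of 0.0399, edgeR). Emx2 was lower there (-1.66, SE 0.32, adjusted p of 0.0498, edgeR), and no other TALE gene passed.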

How the data were processed

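Libraries were made from sorted single cells of mouse frontal isocortex with a 10x Genomics 3′ kit, per the labels' protocols. The authors deposited raw UMI counts per gene and cell in 1 table per sort (17836 genes by 11494 cells in D1Tom, 15769 by 11382 in GTE); the submitters' processing notes name Cell Ranger 2.1.1, STAR 2.5.2b, featureCounts (Subread 1.6.2), UMI-tools 0.5.4 and GRCm38.p6. Values of 2 were 0.307 to 1.69 times as frequent as values of 1 in a library, unlike plain molecule counts, so no Poisson interval was used. The members and lists were chosen with earlier results of these data known.

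Cells with at least 500 counts were clustered per sort without the members (scanpy 1.11.5, 2000 variable genes, 30 components, resolution 1.0), and a cluster was named from at least 3 markers. Cluster 8 of D1Tom and clusters 0 and 6 of GTE met that marker count but were left unnamed by hand. A doublet threshold marked 0 to 5 cells per library and so did not work; an alternative left out the 17 to 125 highest scores per library. Counts were summed per library or type and fitted with edgeR 4.0.16 (TMM, low-count filter, quasi-likelihood, Benjamini-Hochberg, threshold 0.05); SEs are the log2 difference over the square root of its F statistic, and DESeq2 1.42.0 was an alternative. The edgeR fits of GTE and of the sorts were also run on simulated counts with 200 genes changed. Those counts had a fixed spread not taken from these libraries, and the changed genes were drawn from the more abundant ones. How well the fits find changes in genes as low as some members was not tested. Levels are given with SD over libraries; floors are 3 counts. Named from each list were up to 4 genes with the largest change among those past the threshold or, in D1Tom, without overlap. Same-numbered D1Tom libraries share a preparation day and deviated together (correlation 0.500 over 14508 genes). Ratios within each day are therefore given beside the fits. The main edgeR fits and their SEs did not pair the libraries, and a replicate block was an alternative. Same-numbered GTE libraries, whose batches are unclear, gave a correlation of -0.348 over 12042 genes. Columns left unused numbered 0. Sequences are RefSeq's for GRCm38.p6, with 4 of the 5 members matched. Values of 1 gene that the rules would name are not reported here.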

Additional observations from a re-analysis of the deposited data

How the results depend on the processing

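Of 352 alternative values for 51 results, 284 stayed within the main result's direction and side of the threshold, or its spread. Signs changed for some uncalled values. In GTE, Meis2 was -0.18 without control 1, -0.06 without cKO 1 and -0.10 on the number of cells with a count, and Meis3 was -0.13 without control 2 and -0.03 without cKO 2; leaving out 1 library at a time gave -0.18 to 0.25 and -0.13 to 0.40. Between the sorts, on the number of cells with a count, Meis1 went from -0.21 to 0.13 and Meis2 from 0.74 to -0.80. In D1Tom, where no test was made, signs also differed in neuroblast-like cells for Pbx3 (-0.13 to 1.48) and Meis3 (-0.87 to 0.31). In interneuron-like cells signs differed for Meis1 (-2.16 to 2.04), Meis2 (-0.95 to 2.52) and Meis3 (-0.27 to 0.62). The 2.52 of Meis2 came from alternatives that also took in neuroblast-like cells. Over all cells signs differed for Meis2 (-0.23 to 0.30), Meis3 (-0.36 to 0.22) and Pbx2 (-0.0097 to 0.23). The number of members called between the sorts went from 0 to 1 (Pbx3) with a replicate block and on the number of cells with a count. Calls from fits with 1 library left in a group are not counted here. The causes were not tested. The median over members and types in D1Tom, -0.01, was 0.207 without D1Tom control 1, the upper end of a range from -0.0974 on leaving out 1 library, and -0.0033 with the replicate block; the median over the 5 members in all cells was 0.11 with it. In GTE the block called 0 members, as did the crossed pairing (control 1 with cKO 2), added after seeing the data, which called 10 genes higher and 14 lower over all genes, against 1 and 3. Over all genes the block called 0 in GTE, no low-count filter 8 and 10, and leaving out cKO 2 called 6 and 21. Between the sorts, 156 higher and 40 lower became 558 and 795 with DESeq2, and 922 and 602 with the block. That block pairs libraries across the sorts that have no known link. The mean share of D1Tom cells with a Meis2 count, at 1000 counts a cell, was 27.5% in controls and 25.0% in cKO; it was 73.4% and 67.4% unthinned, and 15.6% and 14.9% at 500 counts, so depth sets its size.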
